A study of Rattus norvegicus with 6 samples.

Results

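Ins1 and Ins2, the pair of insulin genes of the rat, were examined in BRIN-BD11 cells with and without the class I histone deacetylase inhibitor MS-275. The pair was chosen by Ensembl identifier, ENSRNOG00000012052 for Ins1 and ENSRNOG00000020405 for Ins2, and both identifiers are among the 22250 genes of the count tables. BRIN-BD11 is a clonal insulin-secreting line made by fusing RINm5F insulinoma cells with islet cells of the NEDH rat, so it carries material of both parents and is 1 cell line at 1 passage (25). RNA was sequenced from 3 control libraries, labelled WT and without inhibitor, and from 3 libraries of MS-275-treated cells. The paper says that the controls received DMSO, whereas their labels give no vehicle. The treated cells were given 5 µM MS-275 (entinostat, dissolved in 0.1% DMSO) from 24 h after seeding and for 16 h. The paper states a lower concentration of DMSO for the controls than the labels give for the treated cells, so if both hold, the vehicle and the inhibitor cannot be told apart. The labels number the libraries 1 to 3 in each group but do not say that they came from separate cultures, so p-values measure the spread between these libraries, which may be technical. Between 5230555 and 9172422 reads per library were counted on genes.

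Insulin is made as preproinsulin, which is cut and folded in the endoplasmic reticulum and then processed to insulin and C-peptide by prohormone convertases in the secretory granule. Most mammals have a single insulin gene, whereas rats and mice have a pair of them. Ins2 is the counterpart of the single gene of other mammals, and Ins1 arose from it as a copy made through RNA that kept some of the upstream sequence and lost an intron. Both are transcribed in beta cells under promoters bound by homeodomain factors such as Pdx1 at A boxes, by basic helix-loop-helix factors such as Neurod1 at E boxes and by Maf factors. Class I histone deacetylases remove acetyl groups from histones, and their inhibition raises histone acetylation.

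The promoters of both genes are shown first because Ins1 arose as a copy of Ins2. Any part of the promoter sequence in the counts of the genes was not tested. The sequences are RefSeq's, in the rat assembly GRCr8, and run from 250 bases before the annotated start of the gene to 50 bases after it. GRCr8 is not the assembly used for the counts. Capitals mark the A box core pair TAATTA, the CRE half-site TGACG, the CCAAT box CCAAT, the E box GCCATCTG and the TATA box TATAAA. Single A box cores (TAAT) were not searched, so A boxes may also lie outside the capitals. The general E box CANNTG was searched as well but is not marked on its own. The Ins1 window lies on the plus strand at chr1:261185869-261186168 and the Ins2 window on the minus strand at chr1:207273756-207274055.
Ins1: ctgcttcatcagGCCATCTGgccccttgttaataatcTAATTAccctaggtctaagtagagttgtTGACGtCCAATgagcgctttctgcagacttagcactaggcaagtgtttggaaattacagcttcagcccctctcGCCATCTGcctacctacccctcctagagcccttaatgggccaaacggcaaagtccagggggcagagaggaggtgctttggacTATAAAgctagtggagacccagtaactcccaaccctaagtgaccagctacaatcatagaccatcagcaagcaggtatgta
Ins2: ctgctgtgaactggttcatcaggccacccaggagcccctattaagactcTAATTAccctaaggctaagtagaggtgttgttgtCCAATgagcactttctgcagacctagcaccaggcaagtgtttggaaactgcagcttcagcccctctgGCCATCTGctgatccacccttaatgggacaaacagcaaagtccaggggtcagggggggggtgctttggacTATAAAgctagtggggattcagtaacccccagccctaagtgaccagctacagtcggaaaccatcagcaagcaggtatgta

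In a global alignment of these windows, 254 of the 287 aligned base pairs were identical (88.5%). With gaps counted, the identical bases were 81.2% of the 313 columns of the alignment. The TATA box began 30 bases before the start in both genes. The E box GCCATCTG was found at 112 and 238 bases before the start of Ins1 and at 100 bases before the start of Ins2, so Ins1 holds a second, distal copy. The A box core pair TAATTA began 213 bases before the start of Ins1 and 201 before that of Ins2. The CRE half-site TGACG, the core of the site bound by cAMP-responsive factors, lay 185 bases before the start of Ins1, and these letters are not in the Ins2 window. Motifs were searched on both strands, and the E box GCCATCTG also matches the general E box CANNTG. Outside GCCATCTG, CANNTG began 146 bases before the start of Ins1 and 134 before that of Ins2. Among 33469 rat promoter windows of the same length, 1.23% held GCCATCTG, 5.36% TAATTA, 14.2% TATAAA, 21.2% TGACG, 37.5% CCAAT and 72.1% CANNTG. A match of letters is a description and does not show that a factor was bound.

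All of the reads counted on the insulin genes were on Ins1. The Ins1 counts were 5049, 6522 and 4435 in control replicates 1, 2 and 3. With MS-275 the Ins1 counts were 3903, 4470 and 9263 in replicates 1, 2 and 3. The count of Ins2 was 0 in each of the 6 libraries, so no library of either group gave a single read to the gene that is the counterpart of the insulin gene of other mammals.

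**Figure D1:**
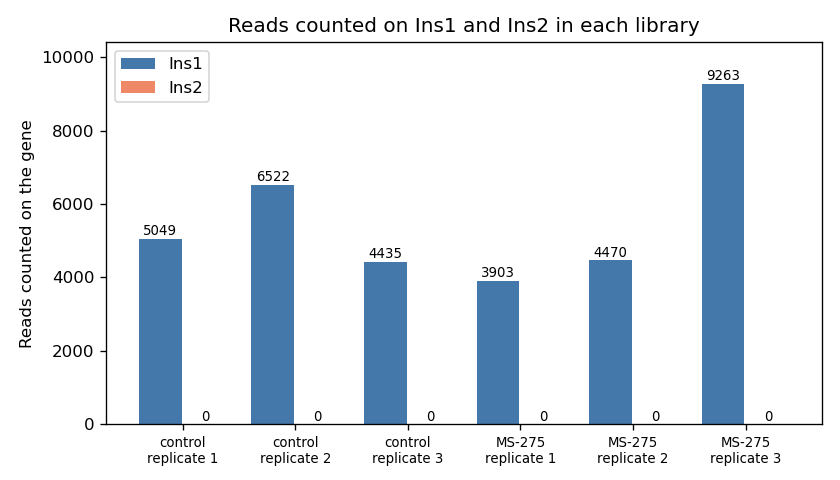
Reads counted on Ins1 (blue) and Ins2 (orange) in each library, before any scaling for library size, with the count printed above each bar. Ins1 had between 3903 and 9263 reads, and Ins2 had 0 reads in all 6 libraries.

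A count of 0 sets an upper limit rather than showing absence. Taking 3 reads per library as that limit, Ins2 could hold up to between 0.0324% and 0.0769% of the insulin reads of a library, or between 0.335 and 0.588 CPM (the count divided by the library total on genes and multiplied by 1e6, scaled between libraries by the TMM method). These limits cover counting error only and concern reads that the counting assigned to the gene. In all, 5404 of the 22250 genes (24.3%) had a count of 0 in every library, so a row of zeros was not in itself uncommon in these tables. Ins1 made up 100% of the insulin counts in each library of both groups, so the balance between the genes gave no difference to test. No fold change with MS-275 can be given for Ins2.

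The count tables also set aside alignments that were given to no gene, and these were many compared with the reads on Ins1. Alignments on no annotated gene were the largest class, between 60.2% and 61.9% of the alignments of a library. Alignments that fell on more than 1 annotated gene were between 6.79 and 8.62 times as many as the Ins1 reads of the same library. Alignments to more than 1 place in the genome were between 295 and 435 times as many. The tables do not show where these alignments lie. In RefSeq's annotation of GRCr8, Ins2 has 36 transcripts, of which 34 are predicted noncoding ones. There, 1 further gene, LOC108349673, lies within or across the span of Ins2, with strand not considered. Ins1 has 1 transcript there and no overlapping gene. The transcribed sequences of Ins1 and Ins2 were not compared. The part of the gene models, of overlapping annotation, of likeness between the genes and of the assembly in the count of 0 was not tested. The counts of both genes are therefore uncertain in this respect.

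Ins1 was among the genes with the most reads in control BRIN-BD11 cells. Its level was 734 ± 87.8 CPM (SD, n = 3), with 635, 801 and 767 CPM in control replicates 1, 2 and 3. This was 21.5 times the median of the 12596 genes that entered the test, and 99.2% of these genes had fewer reads. Replicate 1 was the lowest of the controls, and the other two differed by little. The order is one of reads and not of transcripts, since the values are not divided by gene length and longer genes yield more reads. Of all reads on genes, Ins1 took 0.0751% ± 0.00844 (SD, n = 3) in the controls.

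Ins1 held place 104 in the order of mean control CPM. The genes directly above and below it were ENSRNOG00000013009 at 738 ± 45.8 CPM and ENSRNOG00000018795 at 728 ± 32.4 CPM (SD, n = 3), and neither differed from Ins1 by more than the spread of Ins1 between the controls. In single libraries its place by counts ran from 90 to 133 in the controls. With MS-275 Ins1 held place 82, between ENSRNOG00000001172 at 887 ± 94.3 CPM and ENSRNOG00000001136 at 867 ± 34.1 CPM (SD, n = 3). In single MS-275-treated libraries its place ran from 65 to 130, which overlaps the range of the controls. Of the 103 genes with more reads than Ins1 in the controls, 34 had fewer reads than Ins1 with MS-275, whereas 12 genes went from below Ins1 to above it.

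**Figure D2:**
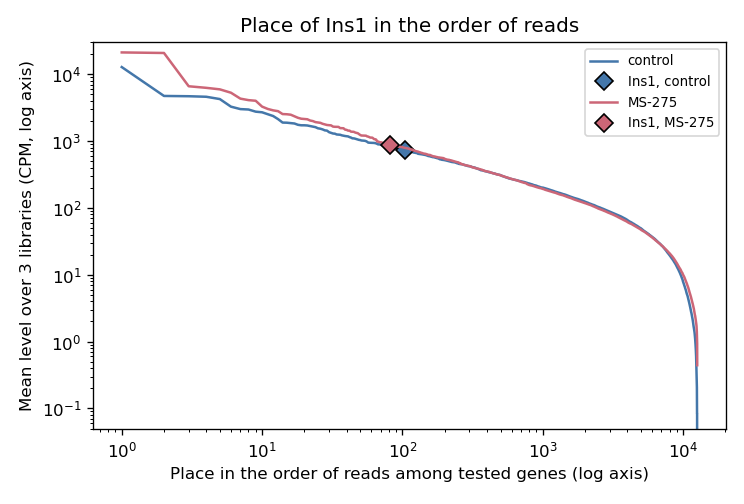
Tested genes in the order of their mean CPM over 3 libraries, for the controls (blue line) and the MS-275-treated libraries (red line), both axes logarithmic, with Ins1 as a diamond on each line. Ins1 lies at place 104 with 734 CPM in the controls and at place 82 with 876 CPM with MS-275.

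The comparison of MS-275 with control asks whether inhibition of class I histone deacetylases altered insulin transcript levels in these cells. The Ins1 level with MS-275 was 720, 876 and 1034 CPM in replicates 1, 2 and 3, a mean of 876 ± 157 CPM (SD, n = 3), against 734 ± 87.8 CPM in the controls. MS-275 replicates 2 and 3 lay above all controls, whereas replicate 1 lay below 2 of the 3 controls, so the groups overlapped. The log2 fold change of Ins1 was 0.26 with a standard error of 0.12, which is a 1.20-fold level with a 95% interval from 0.998 to 1.43. In edgeR's quasi-likelihood test across all genes the adjusted p was 0.0778 (unadjusted p = 0.0522), so Ins1 did not pass the threshold of 0.05. The exact permutation test over the 6 libraries gave p = 0.3 (two-sided), where the smallest that 3 against 3 allow is 0.1. A log2 change of 1 in either direction lay outside this interval.

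**Figure D3:**
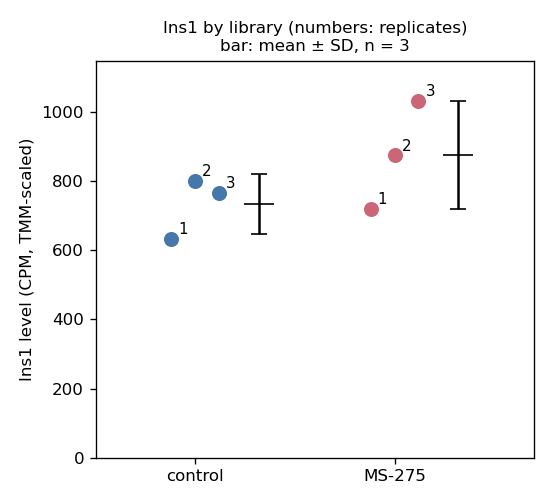
Ins1 level in CPM with TMM scaling, 1 point per library with its replicate number, and the mean ± SD (n = 3) beside each group. The controls span 635 to 801 CPM and the treated libraries 720 to 1034 CPM, so the groups overlap.

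Most genes passed the same test. At an adjusted p under 0.05, 63.6% of the tested genes were called, 32.1% as higher and 31.5% as lower with MS-275, and in 68.1% the libraries of the groups did not overlap. When a log2 change of 1 or more in size was required as well, 13.9% were called higher and 5.16% lower. Ins1 was in neither set, and 30.7% of the tested genes had a smaller absolute log2 fold change than Ins1. Among the 103 genes with more reads than Ins1 in the controls, 44 were higher, 33 were lower and 26 did not pass the test, with a median log2 fold change of 0.10. The log2 fold change of 41 of them was above that of Ins1. Over all tested genes the median was -0.01.

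**Figure D4:**
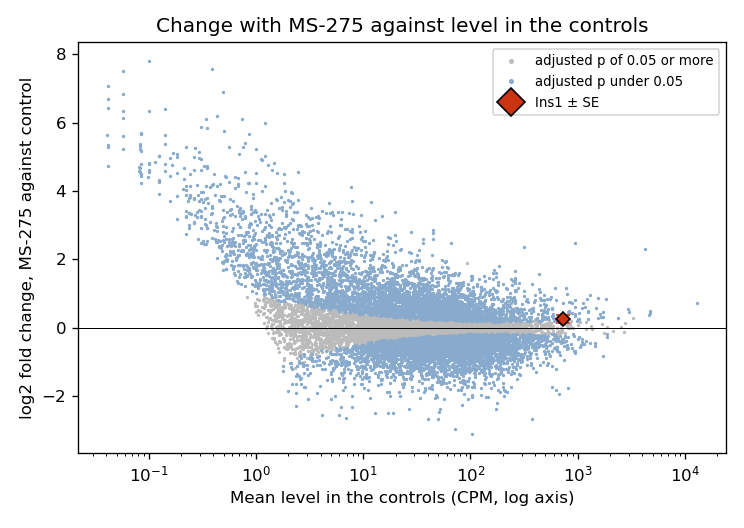
Log2 fold change of each tested gene with MS-275 against its mean CPM in the controls (logarithmic axis), with genes at an adjusted p under 0.05 in blue, others in grey, and Ins1 as a red diamond with its standard error. Genes with no control reads are not drawn. Ins1 lies at 734 CPM and 0.26, close to the line of no change.

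The share of all reads on genes that Ins1 took was 0.0656%, 0.0817% and 0.0779% in control replicates 1, 2 and 3. With MS-275 the share was 0.0705%, 0.0855% and 0.101% in replicates 1, 2 and 3, a mean of 0.0856% ± 0.0152 (SD, n = 3). The difference of 0.0106 percentage points was smaller than the SD of the MS-275-treated libraries (exact permutation test, two-sided p = 0.4). It was 0.00292 percentage points without MS-275 replicate 3, 0.00585 without control replicate 1 and 0.0182 without MS-275 replicate 1. The libraries of the groups overlapped in this measure too. The share divides by the library total on genes, so it is the CPM without TMM factors and still depends on that choice of scaling.

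The call on Ins1 depended on single libraries, on the scaling and on the test. Without MS-275 replicate 1, the lowest of the treated libraries, the log2 fold change was 0.39 and the adjusted p 0.00342 in edgeR's quasi-likelihood test, while without MS-275 replicate 3, the highest, they were 0.12 and 0.313, and without control replicate 1 they were 0.17 and 0.247. In edgeR, upper-quartile scaling gave an adjusted p of 0.0186 at 0.35 and library sizes alone gave 0.166 at 0.19. DESeq2 gave an adjusted p of 0.0421 at 0.27, whereas edgeR with the same kind of scaling (RLE) gave 0.0605 at 0.27. The log2 fold change was above 0 in each of the 14 alternative settings, between 0.12 and 0.39.

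**Figure D5:**
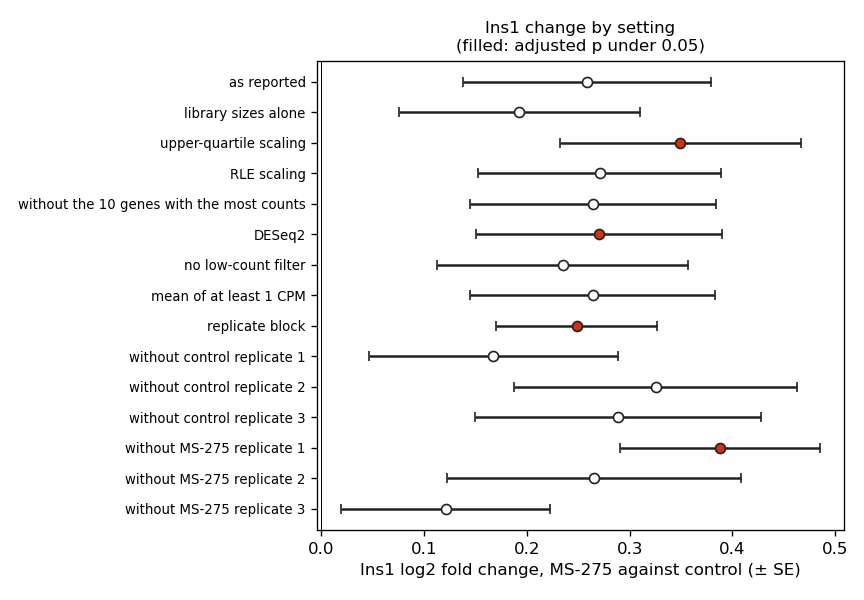
Log2 fold change of Ins1 with its standard error as reported (top) and under each of 14 alternative settings, with filled points where the adjusted p was under 0.05. The values lie between 0.12 and 0.39, and 4 of the 14 alternatives are filled, namely upper-quartile scaling, DESeq2, the replicate number as a block and the fit without MS-275 replicate 1.

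The replicates of Ins1 differed by more than the error of counting independent reads. That error, the inverse square root of the Ins1 count, was between 1.04% and 1.60% of its value in a library, and reads of amplified libraries are not independent molecules. The coefficient of variation between libraries was 12.0% in the controls and 17.9% with MS-275. The biological coefficient of variation that the fit gave Ins1 was 0.109, against 0.0880 over all tested genes. In bulk RNA, a different number of insulin-expressing cells and a different amount of Ins1 RNA per cell cannot be told apart.

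The genes whose pattern over the libraries was most like that of Ins1 were found by the root mean square difference of log2 CPM, each gene centred on its own mean over the 6 libraries. Among the 9909 other genes that averaged 10 CPM or more and had a read in every library, the nearest was ENSRNOG00000059295 at a distance of 0.0480, followed by ENSRNOG00000049128 at 0.0553 and ENSRNOG00000004581 at 0.0581. The median distance was 0.345. ENSRNOG00000059295 had 343, 437 and 320 counts in the controls and 261, 300 and 598 with MS-275. These counts are not scaled, and MS-275 replicate 3 was also the library with the most reads on genes (9172422). With TMM scaling the mean level of ENSRNOG00000059295 was 50.7 CPM in the controls and 57.9 CPM with MS-275. The distance holds the group difference and the spread within groups together and says nothing of shared function or control.

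The tables name no genes, and none of the 47357 genes of the RefSeq table used here is paired with an Ensembl identifier. The transcription factors of the insulin promoters, the proinsulin-processing enzymes, the granule proteins and the markers of beta, other islet, exocrine and connective tissue cells were therefore not analysed here. Among the values given here, only those of Ins1 bear on the identity of the cells as beta cells.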

How the data were processed

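Paired-end reads were trimmed with Trimmomatic 0.36, per the submitters' processing notes, cleared of contaminating reads with bowtie2 and aligned to Rnor_6.0 with STAR by the authors. The authors deposited raw counts of reads per Ensembl gene, 1 table per library, without normalization. The methods name featureCounts, whereas each table ends with 5 summary lines as htseq-count writes them. Strandedness and the annotation release are not given in the sources used here. The summary lines, 68.6% to 70.8% of the alignments, name no gene and entered neither library totals nor fits. The authors' own comparison (group means, fold changes and p-values) was not used.

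Genes were filtered with filterByExpr and tested with edgeR 4.0.16 in R 4.3.3 (TMM, robust quasi-likelihood, all 6 libraries, no block) with Benjamini-Hochberg adjustment over 12596 genes. Ins2 could not be fitted, since its count was 0 throughout. Replicates were not copies of each other (chi-square per degree of freedom between 1.76 and 10.5). The fit was tested on simulated data. Standard errors are the log2 fold change divided by the square root of F. Intervals are 95% t intervals of the fit.

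Depth was 5230555 to 9172422 counts. Alternatives were other scalings, DESeq2 1.42.0, other filters, a replicate block and leaving out libraries. Ins1 and Ins2, the lists and the rule for named genes (the genes next to Ins1 in order and the 3 nearest in pattern) were chosen with earlier results of these data known. The comparison with the 103 genes above Ins1 was added after the values were seen.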

Additional observations from a re-analysis of the deposited data

Results flagged for a closer look

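The share of alignments to more than 1 place, which the comparisons on genes do not use, was higher with MS-275 than in every control. It was 8.89% ± 0.264 (SD, n = 3) with MS-275 and 8.04% ± 0.130 in the controls, a difference of 0.848 percentage points (p = 0.1 in a two-sided exact permutation test, whose minimum is 0.1 for 3 libraries against 3). The share of alignments that fell on more than 1 annotated gene was also above every control, at 0.202% ± 0.0178 (SD, n = 3) with MS-275 against 0.174% ± 0.00348 (exact permutation test, two-sided p = 0.1). Reads of Ins1 or Ins2 in either class are not in their counts, and the part of both classes in the Ins1 and Ins2 values was not tested.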

How the results depend on the processing

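The Ins1 log2 fold change of 0.26 did not pass the threshold in edgeR's quasi-likelihood test (adjusted p = 0.0778), and 10 of 14 alternatives kept that side of it. It passed with upper-quartile scaling (0.35, adjusted p = 0.0186), with DESeq2 (0.27, adjusted p = 0.0421) and without MS-275 replicate 1 (0.39, adjusted p = 0.00342). With libraries left out in turn it was between 0.12 and 0.39, with adjusted p from 0.00342 to 0.313, and the cause was not tested. The shared numbers were not taken as pairs, since the labels tie them to no day or batch and libraries of the same number deviated from their groups with correlations of 0.17, -0.02 and 0.14. Of the 6 libraries, 3 correlated best with the one of their own number. With the replicate block the Ins1 log2 fold change was 0.25 ± 0.08 (SE), past the threshold (adjusted p = 0.0103), and the log2 difference of MS-275 from the control of the same number was 0.18, 0.13 and 0.43. The count of calls with the block was 8255. The median log2 fold change of all tested genes was between -0.08 and 0.10 over the settings, -0.08 without scaling factors and 0.08 with upper-quartile scaling. The split of the calls moved with it, to 3661 higher and 4451 lower without scaling factors and 4593 and 3287 with upper quartiles, against 4039 and 3966. The count of genes called, 8005, was 2404 when a log2 change of 1 or more in size was required, as follows from the stricter threshold, and within 1.5 times under the others. The share of reads on genes that Ins1 took differed by between 0.00292 and 0.0182 percentage points with libraries left out. Ins2 gave no value under any setting, with no low-count filter included, and counts per gene length and the gene lists were not run, since no gene lengths or names of the build were at hand. Depth limits Ins2 through the limit that a count of 0 allows, and not Ins1.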

Other observations

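Ins1 varied more between replicates than most genes with more reads. Of the 103 genes above it in the controls, 6 had a larger coefficient of variation than Ins1 among the controls and 6 among the MS-275-treated libraries. The median coefficient of variation of these genes was 4.24% in the controls and 6.97% with MS-275, against 12.0% and 17.9% for Ins1. This measure was chosen after the data were seen and has no test.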
